A study of Mus musculus with 2 samples.

Results

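The mitochondrial genome transcripts are the rows of the deposited expression table that lie on the mitochondrial chromosome, 38 of 31920 rows in all. They comprise 13 messenger RNA, 2 ribosomal RNA and 22 transfer RNA rows and 1 row named mmu-mir-805. The study compared polyadenylated RNA from the left ventricle of the heart between a wildtype mouse and a mouse labelled Lamp2 knockout, which lacks by its label a membrane protein of lysosomes. Both were males of the 129-SvEv strain aged 10 weeks. Each genotype has a single library, which leaves nothing to set a difference against: no test was possible, and the 95% intervals given cover counting error only. Levels are RPM, the reads of a row per 1000000 reads in the table. Ratios divide the RPM of the knockout-labelled library by that of the wildtype.

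The mitochondrial genome is a small circle that encodes core subunits of the respiratory chain and of the ATP synthase, together with the ribosomal and transfer RNAs used to translate them. Both strands are transcribed into long precursors, which are cut mostly at the transfer RNAs that punctuate the other genes. Most of the messenger RNAs then receive short poly(A) tails, while mature transfer RNAs end in an added CCA. The heart, which depends on oxidative metabolism, is rich in these transcripts.

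The libraries held 8410593 wildtype and 8773820 knockout-labelled reads. Lamp2 itself had 990 and 986 reads (ratio 0.955, interval 0.873 to 1.04). These counts do not show a loss of the labelled gene, and the part of it that the allele removes is not given in the labels. The cardiomyocyte genes Myh6 and Tnnt2, which encode a myosin heavy chain and troponin T, were abundant in both libraries, at 19313 and 10910 RPM in the wildtype. All 12 cardiomyocyte markers listed were measured, meaning at 5 RPM or more in the higher library, and the labelled tissue therefore carried its defining markers.

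Mitochondrial transcripts took a smaller share of the reads in the knockout-labelled library. They were 2226855 of the wildtype reads, or 26.5%, and 1424172 of the knockout-labelled reads, or 16.2%, a fall of 10.2 percentage points. The messenger RNA rows carried nearly all of that difference, at 23.8% in the wildtype (interval 23.7 to 23.8) and 13.9% in the other library (13.8 to 13.9). The ribosomal RNA rows were at 2.02% (2.01 to 2.03) and 1.69% (1.69 to 1.70), and the transfer RNA rows at 0.281% (0.278 to 0.285) and 0.211% (0.208 to 0.214). The mmu-mir-805 row was at 0.423% (0.419 to 0.427) and 0.456% (0.451 to 0.460), higher on this scale. On the 4 other scales described further on its ratios were 0.946 to 0.994, and the interval held 1 on some of them. The ratios of these shares were 0.584 for messenger, 0.840 for ribosomal and 0.751 for transfer RNA and 1.08 for mmu-mir-805, and the counting intervals of the 4 classes do not overlap.

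**Figure D1:**
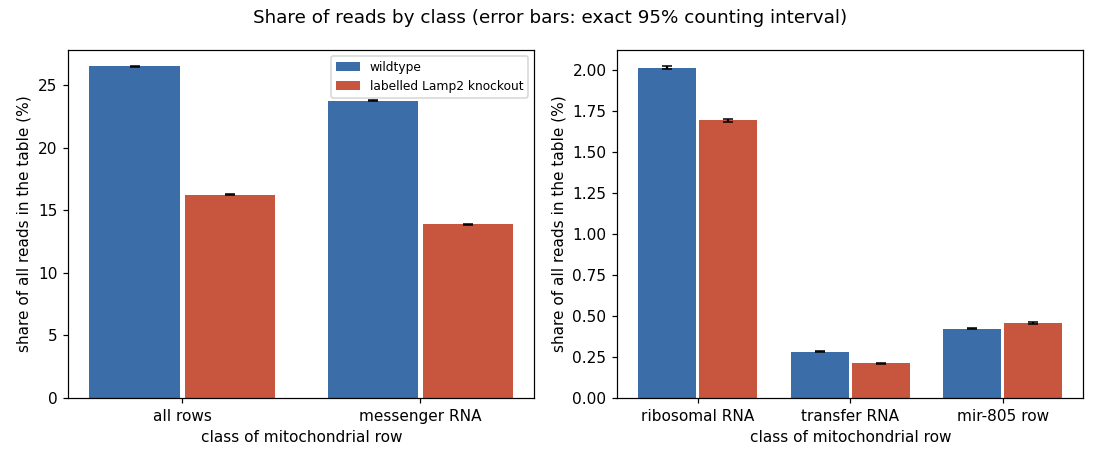
Share of all reads in the table (y axis, %) taken by each class of mitochondrial row (x axis) in the wildtype and the knockout-labelled library, with exact 95% counting intervals as error bars and a separate scale for the smaller classes. Messenger RNA falls from 23.8% to 13.9%, ribosomal RNA from 2.02% to 1.69%, and the mmu-mir-805 row stands at 0.423% and 0.456%.

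Of the 38 rows, 25 were measured. These were 7 messenger, both ribosomal and 15 transfer RNA rows and mmu-mir-805. Another 2 rows, mt-Nd3 and mt-tRNA-Arg, reached only 1.78 and 1.19 RPM in the wildtype, from 15 and 10 reads, and stood at 9 and 6 reads in the other library. The remaining 11 rows were under 1 RPM in both libraries and count as not counted, with 8 of them at 0 reads in both. At these depths, the limit of 3 reads that a count of 0 allows corresponds to 0.357 RPM in the wildtype, against 0.342 RPM in the other library.

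The uncounted rows were not spread evenly over the genome. From mt-tRNA-SerchrM- to mt-Nd4l, a stretch of 3304 bases (chromosome M, 6870 to 10173, mm10) held 11 consecutive rows, and together they had 30 wildtype and 19 knockout-labelled reads. This stretch encodes subunits 2 and 3 of cytochrome c oxidase (mt-Co2 and mt-Co3), both mitochondrially encoded ATP synthase subunits (mt-Atp8 and mt-Atp6), the complex I subunits mt-Nd3 and mt-Nd4l, and 5 transfer RNAs. mt-Co2, mt-Atp8, mt-Atp6 and mt-Nd4l were listed at 0 in both libraries, and mt-Co3 had 2 wildtype reads. Outside the stretch, mt-tRNA-Tyr was listed at 0 in both libraries and mt-tRNA-Asn had 8 and 3 reads.

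**Figure D2:**
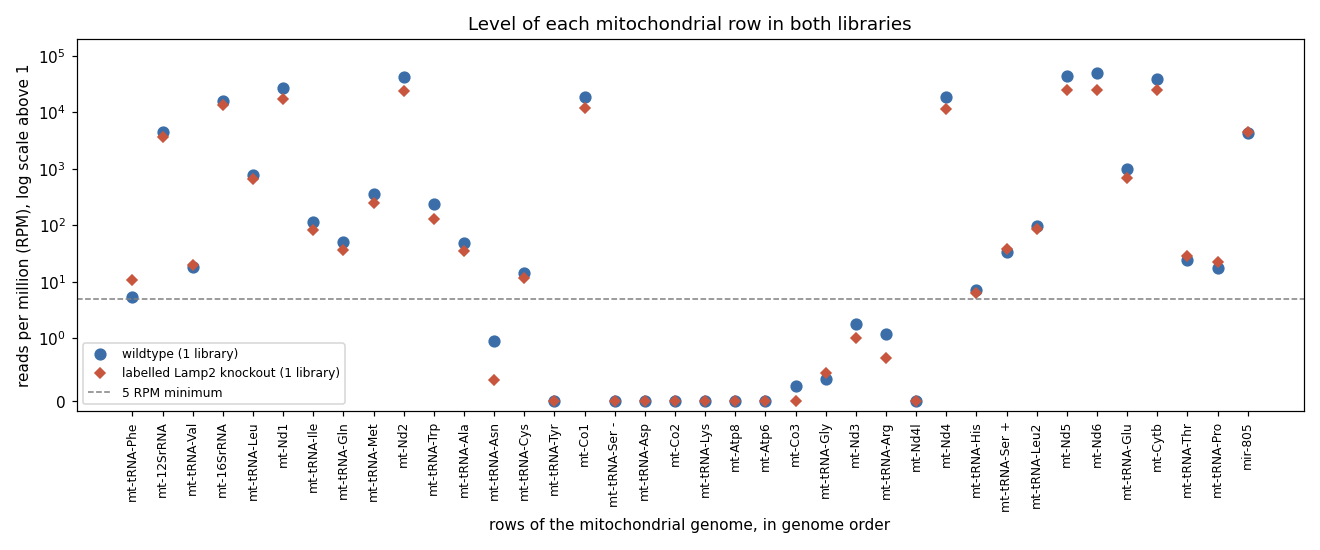
RPM of all 38 mitochondrial rows (y axis, log scale above 1 and linear below) in genome order (x axis), with circles for the wildtype, diamonds for the knockout-labelled library and the 5 RPM minimum as a dashed line. The run from mt-tRNA-SerchrM- to mt-Nd4l lies under 2 RPM in both libraries, while mt-Co1 before it and mt-Nd4 after it stand at 18913 and 18372 RPM in the wildtype.

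Of the 6 messenger RNA rows without a measured level, 5 have nearly all of their sequence in annotated nuclear transcripts as well. Each row was split into overlapping words of 50 bases, and each word was looked up, on both strands, in all other transcripts of the GENCODE M21 annotation of GRCm38. Of the words of mt-Co2, 100% occurred in a nuclear pseudogene, as did 99.5% of those of mt-Atp6, 99.9% of mt-Co3, 98.8% of mt-Nd4l and 98.0% of mt-Nd3. The share was 51.1% for mt-Co1 and 62.2% for mt-Nd4. It was 8.19% for mt-Nd2, 7.61% for mt-Nd5 and 0% for mt-Nd1, mt-Nd6 and mt-Cytb. All 7 measured messenger RNA rows thus had shares of 62.2% or less, and 5 of the 6 others had 98.0% or more. mt-Atp8 was the exception, with 0 of its 155 words found and 0 reads. With words of 36 bases, 8 of its 169 were found, or 4.73%. How the authors treated reads that match several places is not given in the sources used here.

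**Figure D3:**
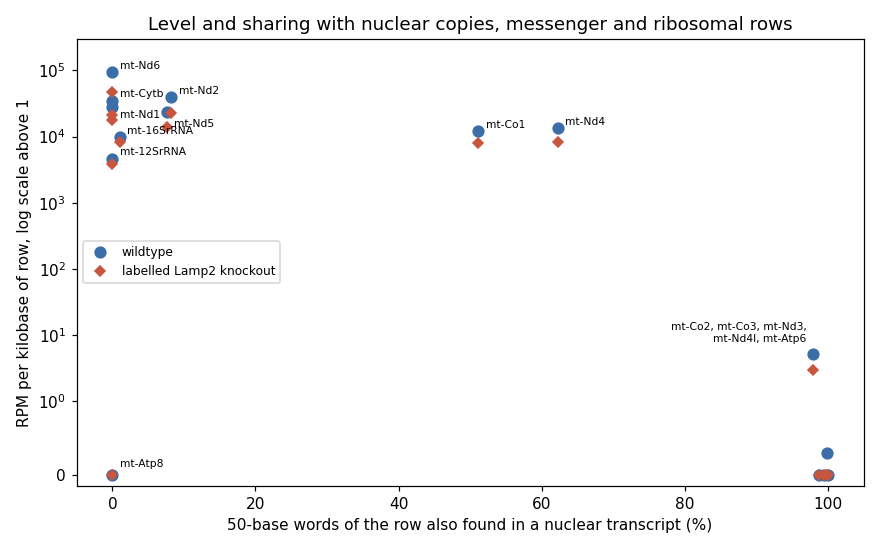
Level of the 13 messenger and 2 ribosomal RNA rows (y axis, RPM per kilobase of row, log scale above 1 and linear below) against the share of their 50-base words that also occur in a nuclear transcript (x axis, %), with circles for the wildtype and diamonds for the knockout-labelled library. Of the 6 messenger rows at or near 0, 5 lie at 98.0% or more and mt-Atp8 at 0%. At shares of 51.1% and 62.2%, mt-Co1 and mt-Nd4 stand at 12241 and 13332 RPM per kilobase in the wildtype.

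Most of these words came from 1 block of nuclear DNA. On the minus strand of chromosome 1, from 24611535 to 24616197 (GRCm38), 7 annotated pseudogenes follow the order of the mitochondrial genes from the end of mt-Co1 to the first part of mt-Nd4. The copies of mt-Co2, mt-Atp6, mt-Co3, mt-Nd4l and mt-Nd4, named Gm28661, Gm10925, Gm28437, Gm10222 and Gm28439, had 0 differing bases over 681, 678, 783, 294 and 876 aligned bases. Gm28438 differed from mt-Nd3 at 1 of 345 bases, and Gm29216 from the last 492 bases of mt-Co1 at 6. The transfer RNAs and mt-Atp8 fall mostly in the gaps between these pseudogenes. The end of mt-Atp8 (chrM:7766-7969) overlaps mt-Atp6, which starts at 7927, and so lies within the part copied in Gm10925. Between the copies of mt-Co2 and mt-Atp6, where mt-tRNA-Lys and most of mt-Atp8 lie, the gap is 233 bases in chromosome 1 and 230 in the mitochondrial genome. The gaps that hold mt-tRNA-SerchrM- and mt-tRNA-Asp are 140 bases in both. The sequence of the gaps was not analysed here, so the shares for mt-Atp8 and for the transfer RNAs cover annotated transcripts only.

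To show the identity, 60 bases of mt-Co2 are set beside its copy on chromosome 1, and 60 bases of the counted row mt-Co1 beside a copy on chromosome 2, Gm13340. Capitals mark the bases that differ, of which there are 0 in the first pair and 4 in the second. The mt-Co1 window was picked as the 60 bases with the most differences from Gm13340. Over all 1545 aligned bases, Gm13340 differs from mt-Co1 at 37. The mt-Co2 bases are chrM:7073-7132 on the plus strand and those of Gm28661 chr1:24615446-24615505 on the minus strand. The mt-Co1 bases are chrM:5787-5846 on the plus strand and those of Gm13340 chr2:22589129-22589188 on the minus strand. All are from the GENCODE M21 transcripts of GRCm38, 5′ to 3′.
mt-Co2: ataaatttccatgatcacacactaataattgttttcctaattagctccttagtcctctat
Gm28661: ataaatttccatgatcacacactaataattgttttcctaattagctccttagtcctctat
mt-Co1: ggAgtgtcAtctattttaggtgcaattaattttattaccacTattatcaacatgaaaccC
Gm13340: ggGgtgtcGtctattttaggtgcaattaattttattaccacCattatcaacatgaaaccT

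No row of the table matched these pseudogenes by symbol. A row named Atpase6, on the minus strand of chromosome 1 from 24613971 to 24614812 in mm10, covers Gm10925 and was at 0 reads in both libraries. Its choice followed a look at its value. The 26.5% and 16.2% above are therefore shares of the counted rows and include almost no reads for 6 of the 13 messenger RNAs.

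Complex I, the NADH dehydrogenase that feeds electrons into the chain, gave 5 of the 7 measured messenger RNAs. mt-Nd1 was at 26826 RPM in the wildtype and 16966 RPM in the knockout-labelled library, a ratio of 0.632 (0.628 to 0.637). mt-Nd2 was at 41531 and 23929 RPM (ratio 0.576, 0.573 to 0.579), and mt-Nd4 at 18372 and 11343 RPM (ratio 0.617, 0.613 to 0.622). All of these membrane-arm subunits stood lower in the knockout-labelled library. mt-Nd5 was at 43553 and 25073 RPM, a ratio of 0.576 (0.573 to 0.579). mt-Nd6 had the highest wildtype level of any row in the table, 49224 RPM, and was at 24549 RPM in the other library, where mt-Nd5 and mt-Cytb stood above it. Its ratio of 0.499 (0.496 to 0.501) was the lowest of the 25 measured rows.

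Complexes III and IV were represented by a single counted messenger RNA each, and the ATP synthase by none. Cytochrome b, the mitochondrially encoded subunit of complex III, which passes electrons to cytochrome c, had 39147 and 24684 RPM for mt-Cytb (ratio 0.631, 0.627 to 0.634). mt-Co1, the catalytic subunit of cytochrome c oxidase or complex IV, had 18913 and 12167 RPM (ratio 0.643, 0.638 to 0.648). The 7 messenger ratios thus ran from 0.499 to 0.643 with a median log2 ratio of −0.70, against a median log2 ratio of 0.12 over all 10209 rows that were measured. They do not form a single value within counting error: the intervals of mt-Nd2 and mt-Nd5 overlap, as do those of mt-Nd1 and mt-Cytb, and the others stand apart.

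Of the 25 measured mitochondrial rows, 1 was at least 2-fold lower, mt-Nd6, and 1 at least 2-fold higher, mt-tRNA-Phe. Over all measured rows of the table, 2.98% were at least 2-fold lower and 4.26% at least 2-fold higher, 7.24% in all. The count of rows past 2-fold is thus near the background. On the deposited scale the interval of mt-Nd6 reaches past 0.5. It lay wholly below 0.5 on the 4 other scales, its upper end running from 0.440 to 0.462. By contrast, mt-tRNA-Phe was under 2-fold on each of those 4 scales. The mitochondrial rows were abundant: 8 of the 10 rows with most reads in the wildtype, against 7 of 10 in the other library were mitochondrial.

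Scaling bears on every value given, since the mitochondrial rows are a large part of the total by which RPM is computed. Scaled to the reads off the mitochondrial genome, of which there were 6183738 and 7349648, the ratio of all mitochondrial reads was 0.538 and the messenger ratios ran from 0.438 to 0.565. The median log2 ratio of all measured rows moved by −0.19 on that scale, and by −0.12 when the median ratio or a trimmed mean of log ratios was used. All 7 messenger and both ribosomal rows stayed below 1 on the deposited scale and on the 4 other scales tried.

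**Figure D4:**
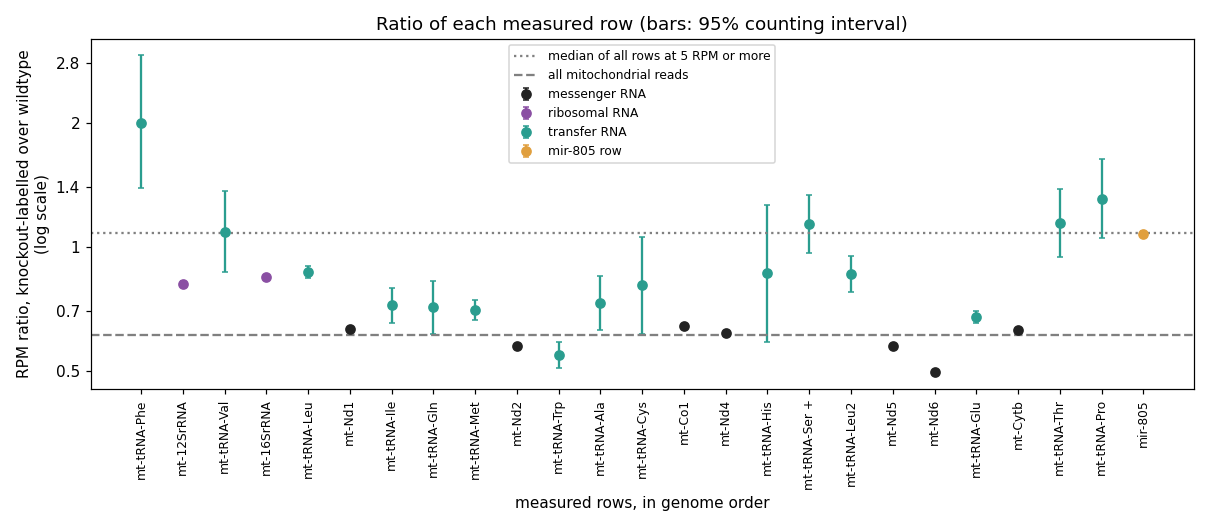
RPM ratio of the knockout-labelled over the wildtype library (y axis, log scale) for the 25 measured mitochondrial rows in genome order (x axis), coloured by class, with 95% counting intervals as bars, a dashed line for all mitochondrial reads and a dotted line for the median of all measured rows. The 7 messenger RNAs lie between 0.499 and 0.643, and 6 rows lie above 1, among them mt-tRNA-Phe at the start of the order and mt-tRNA-Thr, mt-tRNA-Pro and mmu-mir-805 at its end.

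mt-Nd6 is the only protein gene read from the opposite strand to the others, and its row is unusual in level as well as in ratio. Levels of genes are compared per kilobase of row. mt-Nd6 stood at 94843 RPM per kilobase in the wildtype, against 47301 in the other library, 3.97 and 3.44 times the level per kilobase of its neighbour mt-Nd5. It is also the row with the least cytosine, 5.97% of its bases against 27.1% in mt-Nd5, and the most guanine of the 13 messenger rows, 28.1%. The messenger RNA of Nd5 is known to run on past its stop codon, through the region complementary to Nd6. Whether the counts are strand-specific is not stated, and reads from either strand over the mt-Nd6 bases cannot be told apart. The annotated overlap is short, at 14 bases, chrM:13552-13565, and stands in capitals within the last 40 bases of both transcripts, with mt-Nd5 on the plus strand (chrM:13526-13565) and mt-Nd6 on the minus strand (chrM:13552-13591), both 5′ to 3′ from GENCODE M21.
mt-Nd5: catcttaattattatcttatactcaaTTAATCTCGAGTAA
mt-Nd6: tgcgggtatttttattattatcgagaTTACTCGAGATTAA

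The balance between mt-Nd5 and mt-Nd6 differed between the libraries. Of the reads of both rows, mt-Nd6 took 53.1% (52.9 to 53.2) in the wildtype and 49.5% (49.3 to 49.6) in the knockout-labelled library. Among all messenger reads it took 20.7% (20.7 to 20.8) and 17.7% (17.6 to 17.8). Without mt-Nd6, the messenger RNA ratio was 0.606 in place of 0.584.

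The order and spread of the other messenger RNA levels depended on the length by which they were divided. Per kilobase of whole row, mt-Nd2 was the highest of the 6 at 40011 RPM per kilobase in the wildtype and mt-Co1 the lowest at 12241, a spread of 3.27-fold. Counted per kilobase of words not found in a nuclear transcript, mt-Nd2 stood at 45739, mt-Nd4 at 36597, mt-Cytb at 35751, mt-Nd1 at 29545, mt-Nd5 at 26557 and mt-Co1 at 25872 RPM. This divides all reads of a row by its unshared words alone and so takes the shared words to have received none, which was not tested. The spread in the wildtype was then 1.77-fold, and in the knockout-labelled library it was 1.72-fold. At the lower end mt-Nd5 and mt-Co1 changed places there, at 15289 and 16645 RPM. No error between animals can be given for this order.

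Some of these messenger RNAs rely on their tails for a stop codon. mt-Co3, mt-Nd4 and mt-Cytb are annotated with 1 base, a T, after the last whole codon, which the added poly(A) tail is known to complete to a stop codon, whereas mt-Nd5 ends in a whole one. The last 30 bases of the 2 counted examples and of mt-Nd5 are given with that T or stop codon in capitals (plus strand, chrM:11515-11544, chrM:15259-15288 and chrM:13536-13565, GENCODE M21).
mt-Nd4: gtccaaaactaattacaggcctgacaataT
mt-Cytb: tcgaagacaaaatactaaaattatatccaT
mt-Nd5: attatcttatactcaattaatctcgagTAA
The ratios of mt-Nd4 and mt-Cytb, 0.617 and 0.631, lay inside the range of the other messenger RNAs.

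Ribosomal RNAs of the mitochondrial ribosome were lower by less than the messenger RNAs. The 12S row, RNA of the small subunit, was at 4460 RPM in the wildtype and 3629 RPM in the knockout-labelled library (ratio 0.814, 0.802 to 0.826). The 16S row, of the large subunit, was at 15699 and 13308 RPM (ratio 0.848, 0.841 to 0.854). The 16S row took 77.9% (77.7 to 78.1) of the wildtype ribosomal reads and 78.6% (78.4 to 78.8) of the others. Ribosomal reads were 7.82% (7.79 to 7.86) of ribosomal and messenger reads together in the wildtype, and 10.9% (10.8 to 10.9) in the knockout-labelled library. This contrast within the mitochondrial reads does not depend on how the libraries are scaled.

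The nuclear ribosomal precursor row Rn45s, RNA that carries no poly(A) tail when mature, was picked for comparison once its value was known. It was at 8610 and 7945 RPM, a ratio of 0.923 (0.913 to 0.932). Its part in the ribosomal values was not tested.

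Transfer RNA rows were few in reads and varied more. The 15 measured rows ranged from 5.35 to 1008 RPM in the wildtype. On the deposited scale 10 had a ratio below 1 and 5 above it, beside 38.8% of all measured rows below 1. On the deposited scale the counting interval left out 1 in 8 of the 10 and 2 of the 5. The rows mt-tRNA-Glu, mt-tRNA-Leu and mt-tRNA-Met held 76.0% of the wildtype and 75.9% of the knockout-labelled transfer RNA reads. Mature transfer RNAs are short and carry no poly(A) tail. Reads of unprocessed precursors or of neighbours that run into the row cannot be told apart from mature transfer RNA in these counts.

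The grouping of rows by place given next was drawn from the ratios themselves and is a description only. The 5 transfer RNAs with the lowest ratios all lie between mt-Nd1 and mt-tRNA-Ala or between mt-Nd6 and mt-Cytb. Lying against one of these genes did not go with a low ratio in every case: mt-tRNA-Thr directly after mt-Cytb stood at 1.14 and mt-tRNA-Leu directly before mt-Nd1 at 0.870. mt-tRNA-Trp, which follows mt-Nd2 and overlaps it at its end, was at 236 and 129 RPM (ratio 0.547, 0.508 to 0.588). mt-tRNA-Glu, between mt-Nd6 and mt-Cytb, was at 1008 and 681 RPM (ratio 0.676, 0.654 to 0.698). Between mt-Nd1 and mt-Nd2, mt-tRNA-Ile, mt-tRNA-Gln and mt-tRNA-Met had ratios of 0.722 (0.655 to 0.796), 0.714 (0.616 to 0.827) and 0.703 (0.665 to 0.743). The ratio of mt-tRNA-Trp lay inside the range of the messenger RNAs, and the other 4 lay between the messenger and the ribosomal rows. mt-tRNA-Ala and mt-tRNA-Cys, which follow mt-tRNA-Trp on the minus strand, had 0.733 (0.631 to 0.852) and 0.808 (0.615 to 1.06).

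mt-tRNA-Leu, which lies between the 16S row (ratio 0.848) and mt-Nd1 (ratio 0.632), was at 770 and 670 RPM with a ratio of 0.870 (0.839 to 0.901). The cluster between mt-Nd4 and mt-Nd5 had ratios of 0.864 (0.589 to 1.27) for mt-tRNA-His, 1.14 (0.968 to 1.33) for mt-tRNA-SerchrM+ and 0.859 (0.777 to 0.949) for mt-tRNA-Leu2. mt-tRNA-Val, between the ribosomal RNAs, was at 18.2 and 19.8 RPM, a ratio of 1.09 (0.872 to 1.36). Of these, mt-tRNA-Val and mt-tRNA-SerchrM+ went below 1 on other scales, at 0.957 and 0.997 with reads off the mitochondrial genome as the total. For mt-tRNA-His, mt-tRNA-SerchrM+, mt-tRNA-Val and mt-tRNA-Thr the interval held 1 on all 5 scales, so that a difference was not detectable at this depth. That of mt-tRNA-Cys held 1 on the deposited scale and lay below it on the 4 others, with upper ends from 0.931 to 0.978.

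The rows around the control region, the non-coding stretch that holds the promoters, did not share a direction. The 12S row, which starts at base 70 directly after mt-tRNA-Phe, was lower (ratio 0.814, 0.802 to 0.826). By contrast, mt-tRNA-Phe, mt-tRNA-Pro, mt-tRNA-Thr and mmu-mir-805 were not lower on the deposited scale. The ratio of mmu-mir-805 was below 1 on the 4 others. Its interval held 1 with the median ratio and the trimmed mean, and lay below 1 with the totals without mitochondrial rows. mt-tRNA-Phe, the first row after the control region, had 45 wildtype and 94 knockout-labelled reads, or 5.35 and 10.7 RPM, a ratio of 2.0 (1.39 to 2.92). mt-tRNA-Pro, the last gene before it, had 147 and 201 reads, or 17.5 and 22.9 RPM (ratio 1.31, 1.05 to 1.63), and mt-tRNA-Thr beside it 207 and 247 reads (ratio 1.14, 0.947 to 1.38). mmu-mir-805, annotated on the minus strand inside the control region (chromosome M, 16115 to 16209, mm10), had 35569 and 39999 reads, or 4229 and 4559 RPM, a ratio of 1.08 (1.06 to 1.09). Scaled to the reads off the mitochondrial genome, the ratio of mt-tRNA-Phe was 1.76 (1.22 to 2.57) and that of mt-tRNA-Pro 1.15 (0.925 to 1.43), while mmu-mir-805 turned to 0.946. As a share of mitochondrial reads, mmu-mir-805 went from 1.60% to 2.81%, a ratio of 1.76.

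The mature forms of the transfer RNAs with the highest ratios and of the one with the lowest are given as annotated, 5′ to 3′ from GENCODE M21, without the added CCA (mt-tRNA-Phe, chrM:1-68, plus strand. mt-tRNA-Pro, chrM:15356-15422, minus strand. mt-tRNA-Trp, chrM:4950-5016, plus strand).
mt-tRNA-Phe: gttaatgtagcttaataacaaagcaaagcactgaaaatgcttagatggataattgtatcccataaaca
mt-tRNA-Pro: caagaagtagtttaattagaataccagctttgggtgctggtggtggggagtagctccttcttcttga
mt-tRNA-Trp: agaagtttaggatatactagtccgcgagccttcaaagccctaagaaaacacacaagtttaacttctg
None of the 50-base words of these 3 occurred in another annotated transcript.

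Nuclear genes for the same complexes did not share the low ratios of the mitochondrial messenger RNAs. Over 5 lists of nuclear subunits of the respiratory chain and ATP synthase, 78 genes were measured, with ratios from 0.785 to 1.70, and 66 of them, or 84.6%, were above 1, against 61.2% of all measured rows. With reads off the mitochondrial genome as the total, 47 of them, or 60.3%, were above 1, against 43.6% of all measured rows. Their summed level was 5.84% of the wildtype and 6.95% of the knockout-labelled reads. At least 2-fold lower were 0 of 78 and at least 2-fold higher 0, beside 2.98% and 4.26% of all measured rows. Each of the 78 had a ratio above that of every measured mitochondrial messenger RNA on the same scale.

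By complex, the median log2 ratio was 0.26 over 35 nuclear complex I genes, 0.22 over 9 of complex III, 0.30 over 14 of complex IV and 0.21 over 16 of the ATP synthase. These medians remained positive on the 4 other scales, at 0.07 to 0.15, 0.03 to 0.11, 0.12 to 0.19 and 0.02 to 0.09. Complex II, which has no mitochondrially encoded subunit, was at −0.19 over 4 genes (−0.38 to −0.31 on the other scales). Ndufs6 and Ndufc1, accessory subunits of complex I, had ratios of 1.58 (1.54 to 1.62) and 1.70 (1.61 to 1.79). Cyc1, the cytochrome c1 subunit that works beside cytochrome b, had 1.39 (1.34 to 1.43), and Cox5a of complex IV 1.41 (1.38 to 1.44). Sdhc and Sdhd, membrane anchors of complex II, stood at 0.785 (0.747 to 0.826) and 0.809 (0.762 to 0.858).

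**Figure D5:**
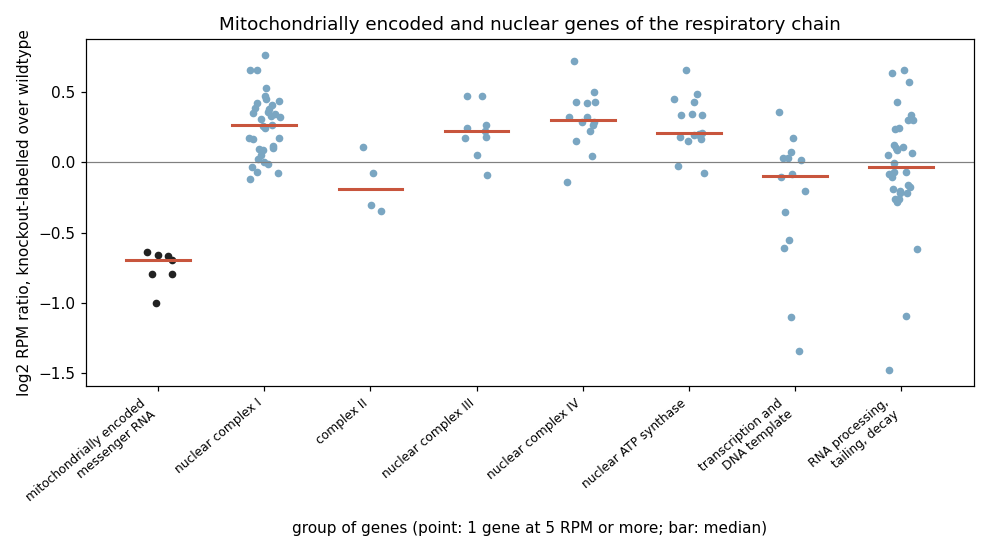
Log2 RPM ratio of the knockout-labelled over the wildtype library (y axis) for the measured mitochondrial messenger RNAs and for nuclear genes in 7 lists (x axis), with 1 point per gene at 5 RPM or more and a bar for each median. The 7 mitochondrial messenger RNAs have a median of −0.70, while the medians of nuclear complexes I, III and IV and the ATP synthase lie between 0.21 and 0.30.

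Nuclear genes that transcribe the mitochondrial genome or maintain it were listed together with regulators of nuclear transcription, Nrf1, Gabpa, Gabpb1, Esrra, Ppargc1a and Ppargc1b. This mixed list had a median log2 ratio of −0.10 over 14 measured genes (−0.28 to −0.21 on the other scales). Polrmt, the mitochondrial RNA polymerase, was at 22.7 and 21.1 RPM (ratio 0.929, 0.754 to 1.14), and Tfam, which packages the genome and opens its promoters, at 22.9 and 19.9 RPM (0.869, 0.704 to 1.07). On the deposited scale neither differed from 1 beyond counting error. On the 4 other scales the interval of Tfam lay below 1, its upper end running from 0.941 to 0.989, while that of Polrmt still held 1. Tfb2m, the promoter-melting factor, was at 10.1 and 6.61 RPM (0.654, 0.460 to 0.924). At least 2-fold lower were 2 of 14 and at least 2-fold higher 0, beside 2.98% and 4.26% of all measured rows. The 2 were both among the regulators of nuclear transcription. They were the coactivator genes Ppargc1a, at 76.5 and 30.2 RPM (0.395, 0.341 to 0.457), and Ppargc1b, at 31.5 and 14.7 RPM (0.467, 0.375 to 0.578).

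For the processing, modification, tailing and decay of mitochondrial RNA, 32 of 35 genes in the table were measured, with a median log2 ratio of −0.03 (−0.22 to −0.15 on the other scales). At least 2-fold lower were 2 and at least 2-fold higher 0, again beside 2.98% and 4.26% of all measured rows. The 2 were Trmt5, which methylates transfer RNAs (0.469, 0.380 to 0.577), and Fastkd1, a regulator of mitochondrial RNA stability (0.359, 0.222 to 0.567). Lrpprc, which with Slirp holds mitochondrial messenger RNAs stable and polyadenylated, was at 90.2 and 75.2 RPM (0.834, 0.750 to 0.926), and Mtpap, the poly(A) polymerase, at 12.4 and 11.1 RPM (0.894, 0.671 to 1.19). Rexo2, an exonuclease that clears short RNA, and Pus1, a pseudouridine synthase, stood at 1.58 (1.41 to 1.76) and 1.55 (1.26 to 1.91).

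Markers of the cell types that a ventricle holds differed in size and direction between the lists. In bulk tissue, fewer cells of a type and less RNA per cell cannot be told apart. The summed level of 12 cardiomyocyte markers was 72151 RPM in the wildtype, against 71602 RPM in the other library. Their median log2 ratio was −0.07 (−0.26 to −0.19 on the 4 other scales). Sums of the other types were smaller: 1226 and 1128 RPM for 10 fibroblast markers, 2607 and 2314 RPM for 10 endothelial markers, 849 and 757 RPM for 8 smooth muscle and pericyte markers, and 165 and 140 RPM for 2 erythroid markers. Those 4 types had median log2 ratios of −0.72, −0.13, −0.46 and −0.21. On the 4 other scales these medians were at −0.91 to −0.83, −0.32 to −0.25, −0.64 to −0.57 and −0.40 to −0.32. Macrophage markers were the 1 list that stood higher, at 196 and 361 RPM summed over 10 genes. Their median log2 ratio was 0.62 (0.43 to 0.50 on the 4 other scales). On the deposited scale 8 of 8 measured members were above 1, beside 61.2% of all measured rows, with C1qb at a ratio of 2.64 (2.35 to 2.98). That count depends on the minimum: Cd68 reached 5 RPM only in the knockout-labelled library (4.99 and 9.92 RPM). Not measured were Emr1, with 8 and 24 reads, and Ptprc, with 15 and 12. The intervals of Mrc1 (1.02, 0.783 to 1.32) and Cd14 (1.09, 0.756 to 1.56) held 1. Members above 1 were not counted on the 4 other scales. No marker in these lists was at 0 in either library. The part of cell composition in the mitochondrial share was not tested.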

How the data were processed

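The authors sequenced poly(A) RNA from 1 left ventricle per genotype label, wildtype and Lamp2 knockout; the series text names poly(A) selection and the sample labels total RNA. Per the submitters' processing notes, STAR was used, with mm10 and GRCm38 as builds. Which tool counted the reads, on which annotation, with what use of strand, and how multiply matching reads were treated is not given in the sources used here. Per the file headers, the deposited table holds read counts per gene and RPM values, which equal the count over the library total times 1000000 to within 5e-05. The authors' deposited fold (a ratio) and the authors' deposited p-value, whose method is not stated, were not used.

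Start coordinates in the table count from 0 and are given plus 1; 37 of 38 rows then matched a GENCODE M21 gene. A row was measured at 5 RPM or more in the higher library, and the rule of size was a 2-fold ratio of RPM without pseudocount. Ratios carry exact conditional binomial (Clopper-Pearson) 95% intervals and shares exact binomial ones. Reads were not tagged by molecule as far as stated, and intervals and floors therefore cover counting error only. Shared words were planned on the whole genome and were looked up in annotated transcripts instead; words overlap along a row. The rule for nuclear rows with 80% or more of their words on the mitochondrial genome found 0 in the table by symbol.

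The members and the 13 gene lists (192 entries, 184 in the table) were chosen with earlier results of these data known. Named were every measured mitochondrial row, Lamp2, Polrmt, Tfam, Lrpprc and Mtpap, and members picked from each list for the size of their log2 ratio (up to 4 per nuclear list) or their reads (2 per marker list), of which some are left out. Alternatives were 4 rescalings, minimums of 1 and 20 RPM, a pseudocount of 1 RPM, other denominators, mt-Nd6 left out, and words of 36, 75 and 100 bases; leaving out mmu-mir-805 was added after the data were seen. The interval and call scripts were tested on simulated counts. Python 3.11.15, numpy 2.4.6, pandas 2.3.3, scipy 1.17.1 and matplotlib 3.10.9 were used.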

Additional observations from a re-analysis of the deposited data

How the results depend on the processing

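The median log2 ratio of the measured messenger RNA rows, −0.70, was −0.81 after division by the median ratio, −0.82 with a trimmed mean of log ratios, −0.88 with the total without mitochondrial rows, −0.88 when the 10 most abundant other rows were also left out, −0.75 with a minimum of 1 RPM and −0.68 without mt-Nd6. Rows at least 2-fold lower numbered 1, or 2 with either total without mitochondrial rows (mt-Nd6 and mt-tRNA-Trp) and 0 without mt-Nd6. The ratio of mitochondrial shares, 0.613, was 0.622 without the 10 most abundant nuclear rows in the total, 0.639 without mt-Nd6 and 0.606 without mmu-mir-805. For messenger RNA the values in the first 2 of these settings were 0.593 and 0.606, beside 0.584. For ribosomal RNA, 0.840 became 0.853 without the abundant rows and 0.744 without messenger RNA in the total.

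The 2-fold calls over all measured rows were 58.9% higher on the deposited scale, 43.6% and 43.2% with the median ratio and the trimmed mean, and 36.6% and 37.0% with the 2 totals without mitochondrial rows. Ratios of rows above 1 fell below it on some scales: mt-tRNA-Val to 0.957 and 0.960 with those totals, mt-tRNA-SerchrM+ to 0.997 with the first of them, and mmu-mir-805 to 0.994, 0.992, 0.946 and 0.949 on the 4 scales. Each follows from the scale factor. Words of 36 bases raised the shared part of mt-Co1 to 59.7% and words of 100 bases lowered it to 30.8%; most transfer RNA rows are too short for words of 75 or 100 bases, which gave no value. No paired analysis was possible because each group has 1 library. With 1 library per group no replicate could be left out, and depth limits the transfer RNA rows most.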
